A study of Mus musculus with 8 samples.

Results

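The 4 atypical chemokine receptor genes *Ackr1*, *Ackr2*, *Ackr3*, and *Ackr4*, the related *Ccrl2*, and the signalling receptor genes *Ccr7* and *Cxcr4* were followed across thymic epithelial cells (TECs) of the embryonic mouse thymus. The 7 genes were taken by symbol from the 55450 genes of the table, and all of them were among the 21451 genes kept by the expression filter. RNA-sequencing covered 8 libraries of CD45-EpCAM+ TECs sorted at embryonic day 17 (E17) from embryos that carry 2 fluorescent reporters, *Ccl21a*-tdTomato, a knock-in at the gene for the chemokine CCL21, and a *Tnfrsf11a*(RANK)-Venus transgene for the receptor RANK. CCL21+RANK- TECs (tdTomato+Venus-) and CCL21-RANK+ TECs (tdTomato-Venus+) were represented by 3 libraries each, and CCL21-RANK- TECs (tdTomato-Venus-) by 2. All 3 populations came from the same double-reporter strain, and no group without the reporters was part of the comparison. The labels do not say whether the libraries of a population came from separate embryos or litters, so the p-values measure the spread between these libraries. Library totals were between 42751858 and 71625319 counts. *Epcam*, whose protein was a criterion of the sort, lay between 49.5 and 156 RPKM. The thymic epithelial transcription factor *Foxn1* lay between 50.7 and 105 RPKM. Markers of the parathyroid, listed below, summed to 7122, 1750, and 1955 RPKM in CCL21+RANK- libraries and to at most 24.9 RPKM elsewhere. RPKM, used throughout for levels, is the count scaled by the summed exon length of the gene and the total of the library.

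Chemokine receptors are seven-transmembrane proteins that couple to inhibitory G proteins and guide cells along chemokine gradients. Atypical chemokine receptors bind chemokines without inducing this G protein response, and take up, degrade, or transport the ligand, in part through arrestins. In the thymus, CCR7 on developing thymocytes responds to CCL21 and CCL19 of the medulla, ACKR4 scavenges CCL19, CCL21, and CCL25, and CXCR4 and the scavenger ACKR3 share the ligand CXCL12.

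The 7 genes fell into 3 patterns. *Ackr4* was high in both RANK- populations and low in CCL21-RANK+ TECs. *Ccr7*, *Cxcr4*, *Ackr3*, *Ackr2*, and *Ackr1* were highest in CCL21-RANK+ TECs, and *Ccrl2* was at similar low levels in all 3 populations. A gene was called when edgeR's quasi-likelihood test gave a Benjamini-Hochberg adjusted p-value under 0.05, the fold change was over 1.5, and the mean of the higher population was over 1 RPKM. For CCL21+RANK- against CCL21-RANK+ TECs, calls were made for 4 of the 7 genes, against 30.9% of all tested genes. Of these, 1 was higher on the CCL21+RANK- side, as were 15.4% of all tested genes, and 3 on the CCL21-RANK+ side, again with a background of 15.4%. For CCL21-RANK+ against CCL21-RANK- TECs, 4 of 7 were called against a background of 29.5%, with 3 higher on the CCL21-RANK+ side (background 14.4%) and 1 on the CCL21-RANK- side (background 15.1%). For CCL21+RANK- against CCL21-RANK- TECs, 1 of 7 was called against a background of 8.02%. It was higher on the CCL21-RANK- side (background 3.66%), and the background of the opposite direction was 4.35%. These comparisons share libraries and are not independent of each other. The libraries of CCL21+RANK- and CCL21-RANK+ TECs did not overlap for 6 of the 7 genes, as for 59.8% of all tested genes, and those of CCL21-RANK+ and CCL21-RANK- TECs for 6 of 7, as for 65.8%. For the RANK- populations the libraries did not overlap for 2 of the 7, as for 38.8% of all tested genes. With 3 libraries against 3, or 3 against 2, an exact permutation test cannot give a two-sided p below 0.1. The median log2 fold change of the 7 genes, CCL21+RANK- over CCL21-RANK+, was -4.70, or -4.65 with 2 genes set at the bound that a floor of 3 counts allows, whereas the median of all tested genes was -0.11. Because *Ackr1*, *Ackr2*, and *Ccr7* were near 0 elsewhere, they could pass the expression filter only through their CCL21-RANK+ libraries, and the median is given as a description.

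**Figure D1:**
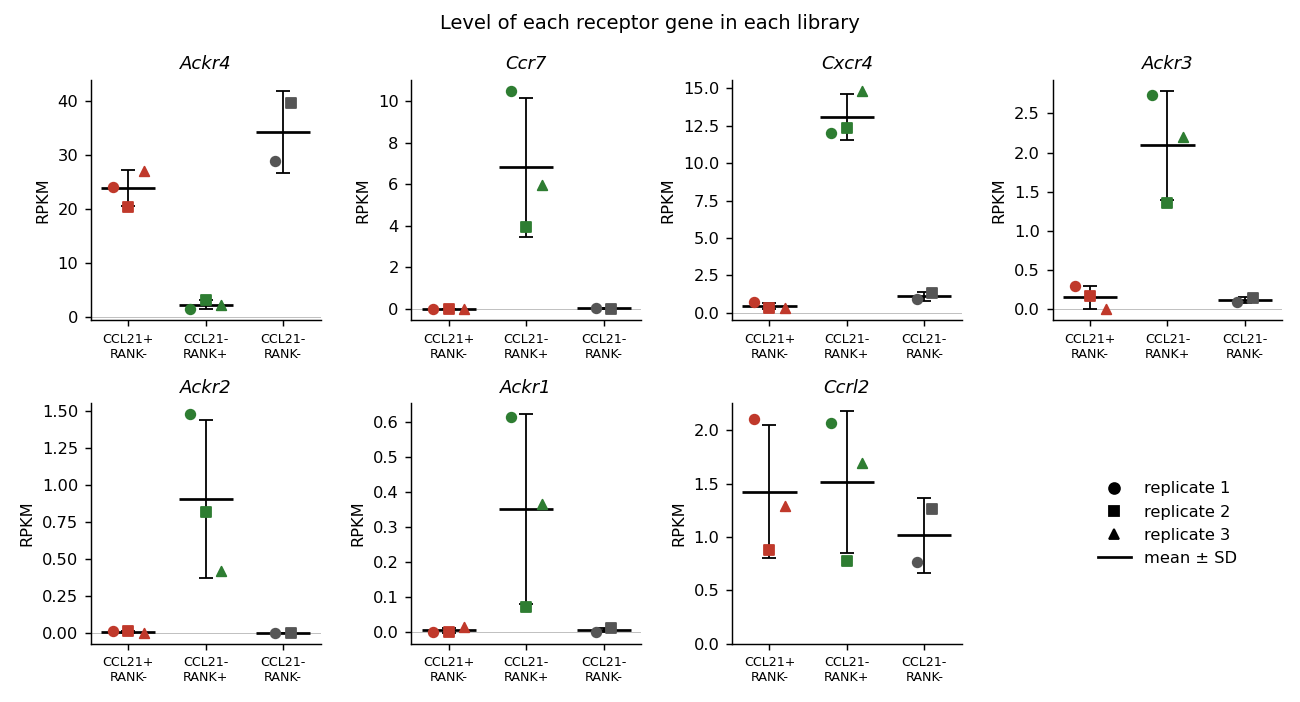
Level of each receptor gene (RPKM, linear axes that differ between panels) in the 8 libraries, grouped by sorted population, with bars for the mean and the SD. *Ackr4* lies between 20.4 and 39.7 RPKM in the RANK- libraries and at most at 3.14 RPKM in the CCL21-RANK+ libraries, whereas *Ccr7* and *Cxcr4* lie at 3.93 RPKM or more only in the CCL21-RANK+ libraries.

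The sequences upstream of 4 of these genes are shown because *Ackr4* and the CXCL12 receptor genes *Cxcr4* and *Ackr3* moved in opposite directions between the same populations, and because *Ackr2* held 2 matches to the kappaB consensus, the letters bound by NF-kappaB factors that act downstream of RANK. RefSeq promoters (GRCm38.p6) were found for 6 of the 7 genes, with *Ccr7* as the exception. Each run below holds the 250 bases before the annotated start, 5′ to 3′ on the strand of the gene, and capitals mark matches to TATAAA or to the kappaB consensus. The regions are chr9:104126644-104126893 (minus strand) for *Ackr4*, chr1:128592300-128592549 (minus strand) for *Cxcr4*, chr1:90203730-90203979 (plus strand) for *Ackr3*, and chr9:121898105-121898354 (plus strand) for *Ackr2*.
Ackr4: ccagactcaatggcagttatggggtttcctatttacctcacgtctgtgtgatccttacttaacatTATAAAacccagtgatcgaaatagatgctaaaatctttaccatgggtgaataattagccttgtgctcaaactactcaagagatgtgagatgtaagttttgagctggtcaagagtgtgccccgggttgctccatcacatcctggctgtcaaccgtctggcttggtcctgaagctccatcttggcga
Cxcr4: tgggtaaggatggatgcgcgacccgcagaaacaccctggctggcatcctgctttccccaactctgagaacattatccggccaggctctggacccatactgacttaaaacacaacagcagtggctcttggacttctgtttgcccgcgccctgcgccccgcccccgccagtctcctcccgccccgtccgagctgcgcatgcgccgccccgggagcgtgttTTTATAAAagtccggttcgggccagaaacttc
Ackr3: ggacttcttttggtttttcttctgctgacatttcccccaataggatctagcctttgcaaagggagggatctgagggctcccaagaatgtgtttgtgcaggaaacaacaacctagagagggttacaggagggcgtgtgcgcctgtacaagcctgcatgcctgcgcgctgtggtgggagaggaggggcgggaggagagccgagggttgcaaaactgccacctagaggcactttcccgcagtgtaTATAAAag
Ackr2: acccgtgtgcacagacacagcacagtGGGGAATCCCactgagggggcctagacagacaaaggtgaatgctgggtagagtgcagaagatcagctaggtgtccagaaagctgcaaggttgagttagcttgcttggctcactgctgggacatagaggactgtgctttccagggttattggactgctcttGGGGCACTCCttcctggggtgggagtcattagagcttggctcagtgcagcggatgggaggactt
On both strands of windows from 250 bases before to 50 bases after the start, TATAAA was found in *Cxcr4*, where matches on the 2 strands overlapped between positions -32 and -25, in *Ackr3* at -8 to -3, and in *Ackr4* at -185 to -180. Of 32851 promoters of this length, 13.6% held TATAAA. The kappaB consensus was found 2 times in *Ackr2*, at -224 to -215 and at -64 to -55, and 1 time in 1 of the 3 annotated starts of *Ccrl2*, against 8.46% of all promoters. GACGC, the core bound by FOXN1, was in 2 of the 3 *Ccrl2* windows and in none of the windows of the other 5 genes, against 27.2% of all promoters. These matches are letters in the reference and say nothing of occupancy in the sorted cells.

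*Ackr4* (ENSMUSG00000079355.5, chr9:104084157-104126933, minus strand), the scavenger of CCL19, CCL21, and CCL25, was at 24.1, 20.4, and 27.1 RPKM in CCL21+RANK- libraries, 1.53, 3.14, and 2.21 RPKM in CCL21-RANK+ libraries, and 28.9 and 39.7 RPKM in CCL21-RANK- libraries. The RANK- libraries all exceeded those of CCL21-RANK+ TECs, and the highest CCL21-RANK+ library was replicate 2. Relative to CCL21-RANK+ TECs the gene was 11.1-fold higher in CCL21+RANK- TECs (log2 fold change 3.48, SE 0.26, edgeR adjusted p = 4.68e-06) and 15.9-fold higher in CCL21-RANK- TECs (log2 fold change of CCL21-RANK+ over CCL21-RANK- TECs -4.00, SE 0.28, edgeR adjusted p = 3.81e-06). Between the 2 RANK- populations each CCL21-RANK- library exceeded the 3 CCL21+RANK- libraries, but the log2 fold change of -0.52 (95% interval -1.10 to 0.06) had an edgeR adjusted p of 0.254. This p ranged from 0.0240, with only the libraries compared in the fit, to 0.723 over the alternatives tried. Among protein-coding genes with a count, *Ackr4* stood at an RPKM percentile between 89.3 and 94.0 in the RANK- libraries and of 40.0, 53.6, and 47.1 in CCL21-RANK+ replicates 1, 2, and 3.

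The *Ackr4* exons share 479 bases (8.90% of the exon length) with *Acad11* on the opposite strand, which encodes an acyl-CoA dehydrogenase. *Acad11* was called in the same direction, at 8.04, 9.12, and 9.76 RPKM in CCL21+RANK- libraries, 3.53, 3.89, and 3.11 RPKM in CCL21-RANK+ libraries, and 9.42 and 9.68 RPKM in CCL21-RANK- libraries. Its log2 fold change, CCL21+RANK- over CCL21-RANK+, was 1.47 (SE 0.12, edgeR adjusted p = 9.47e-06), smaller than that of *Ackr4*. The ratio of *Ackr4* to *Acad11* RPKM was between 2.24 and 4.10 in RANK- libraries and between 0.434 and 0.809 in CCL21-RANK+ libraries. Whether the counting used strand is not stated in the sources used here, and reads of the shared bases then cannot be assigned to one gene. The level of *Ackr4* also depends on the length used. With its longest transcript in place of all exons, the means of CCL21+RANK-, CCL21-RANK+, and CCL21-RANK- TECs were 47.6, 4.58, and 68.4 RPKM instead of 23.9 ± 3.33 (SD, n = 3), 2.29 ± 0.809 (SD, n = 3), and 34.3 ± 7.65 RPKM (SD, n = 2).

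*Ackr3* (ENSMUSG00000044337.5, chr1:90203980-90216751, plus strand), the scavenger of CXCL12 and CXCL11, was at 0.290, 0.169, and 0 RPKM in CCL21+RANK- libraries, 2.73, 1.35, and 2.201 RPKM in CCL21-RANK+ libraries, and 0.0886 and 0.142 RPKM in CCL21-RANK- libraries. The CCL21-RANK+ libraries were all above the others, and the 2 RANK- populations overlapped. In CCL21-RANK+ TECs the gene was 12.1-fold above CCL21+RANK- TECs (log2 fold change -3.60, SE 0.94, edgeR adjusted p = 0.00920) and 16.6-fold above CCL21-RANK- TECs (log2 fold change 4.06, SE 1.13, edgeR adjusted p = 0.0147). The first log2 fold change was -4.46 without CCL21+RANK- replicate 1 and -3.00 without replicate 3, the library with 0 counts, and the call was kept in both. The second log2 fold change stayed about as large, at 3.81 without CCL21-RANK- replicate 1 and 4.35 without replicate 2. The second call was lost in both fits, where the remaining library is assumed to vary like those of the other populations.

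*Ackr2* (ENSMUSG00000044534.8, chr9:121898355-121911074, plus strand) encodes a scavenger of inflammatory CC chemokines. It had 2, 2, and 0 counts in CCL21+RANK- libraries, 265, 128, and 56 counts in CCL21-RANK+ libraries, and 0 counts in both CCL21-RANK- libraries. In CCL21-RANK+ TECs it was at 1.48, 0.816, and 0.419 RPKM. It was 93.8-fold above CCL21+RANK- TECs (log2 fold change -6.55, SE 0.91, edgeR adjusted p = 0.000382, or -5.95 without CCL21+RANK- replicate 3) and, with a floor of 3 counts over the group, at least 127-fold higher than in CCL21-RANK- TECs (edgeR adjusted p = 0.000478). Its mean of 0.905 ± 0.536 RPKM (SD, n = 3) was under the required 1 RPKM, so that it was not called in either comparison. This depended on the library total, as the mean was 1.13 RPKM, over the threshold, with totals that leave out the abundant noncoding *Gm26917* and *Gm42418*. It also depended on CCL21-RANK+ replicate 3, the lowest library at 0.419 RPKM, as the mean of the others was over the threshold.

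*Ackr1* (ENSMUSG00000037872.5, chr1:173331886-173333750, minus strand), the Duffy antigen receptor that binds many inflammatory chemokines on red cells and venular endothelium, had 0, 0, and 1 counts in CCL21+RANK- libraries, 49.3, 5, and 22 counts in CCL21-RANK+ libraries, and 0 and 1 counts in CCL21-RANK- libraries. All CCL21-RANK+ libraries were above the rest, with replicate 2 at only 5 counts. The ratio of CCL21-RANK+ to CCL21+RANK- TECs was 75.0 with a 95% counting interval from 13.1 to 3001, and edgeR gave an adjusted p of 0.00702. The fitted log2 fold change, CCL21+RANK- over CCL21-RANK+, was -5.75, or -7.68 without CCL21+RANK- replicate 3, which held the only count of that population. Against CCL21-RANK- TECs the ratio was 64.7 with an interval from 11.3 to 2590 (edgeR adjusted p = 0.0171), and the adjusted p was 0.126 without CCL21-RANK- replicate 1 and 0.0714 without replicate 2. The gene was not called in either comparison, since its mean in CCL21-RANK+ TECs was 0.350 RPKM. Its exons share 361 bases (25.7% of the exon length) with *Cadm3* on the same strand, a cell adhesion gene with 7, 12, and 0 counts in CCL21+RANK- libraries, 862, 354, and 324 counts in CCL21-RANK+ libraries, and 2 and 1 counts in CCL21-RANK- libraries. *Cadm3* thus moved with *Ackr1* and held more counts in each CCL21-RANK+ library, and the level of *Ackr1* is uncertain because the counting program divides shared reads between them.

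*Ccrl2* (ENSMUSG00000043953.12, chr9:111054486-111057519, minus strand), a non-signalling receptor that presents the chemoattractant chemerin, was at 2.11, 0.879, and 1.29 RPKM in CCL21+RANK- libraries, 2.07, 0.775, and 1.69 RPKM in CCL21-RANK+ libraries, and 0.770 and 1.27 RPKM in CCL21-RANK- libraries. The 3 populations overlapped, and replicate 2 was the lowest in both populations with 3 libraries. The log2 fold change of CCL21+RANK- over CCL21-RANK+ TECs was 0.05 (95% interval -0.89 to 0.98, edgeR adjusted p = 0.936), so that a difference of that size in either direction was within the error. The other log2 fold changes were 0.50 for CCL21+RANK- over CCL21-RANK- TECs (95% interval -0.57 to 1.56) and 0.45 for CCL21-RANK+ over CCL21-RANK- TECs (95% interval -0.61 to 1.51). Its ligand gene *Rarres2*, for chemerin, was at most at 0.0614 RPKM in RANK- libraries and at 1.23, 0.263, and 0.343 RPKM in CCL21-RANK+ libraries, under the level required for a call.

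*Ccr7* (ENSMUSG00000037944.8, chr11:99144196-99155077, minus strand), the signalling receptor for CCL19 and CCL21, had 0, 1, and 0 counts in CCL21+RANK- libraries, 1192, 390, and 507 counts in CCL21-RANK+ libraries, and 7 and 0 counts in CCL21-RANK- libraries. The CCL21-RANK+ libraries were at 10.5, 3.93, and 5.996 RPKM, with replicate 1 the highest and no overlap with the other populations. The ratio to CCL21+RANK- TECs, 2089 counts against 1, was 2061 with a 95% counting interval from 369.6 to 81457 (edgeR adjusted p = 1.68e-05). Against CCL21-RANK- TECs the fitted log2 fold change was 7.83 (SE 0.93, edgeR adjusted p = 9.98e-05). This value rested on the 7 counts of CCL21-RANK- replicate 1, as it was 12.4 without that library and 6.78 without replicate 2, and the call was kept in both. The fitted log2 fold change of CCL21+RANK- over CCL21-RANK+ TECs moved likewise, from -10.51 to -12.55, without CCL21+RANK- replicate 2, which held the only count. Between the RANK- populations, 7 counts, all in CCL21-RANK- replicate 1, stood against 1 count, a ratio of 8.11 with a 95% counting interval from 1.04 to 366 that leaves out the spread between libraries, and the gene was not called (edgeR adjusted p = 0.337). In bulk libraries, fewer cells with a transcript and less transcript per cell cannot be told apart.

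*Cxcr4* (ENSMUSG00000045382.6, chr1:128588199-128592293, minus strand), the signalling receptor for CXCL12, was at 0.695, 0.349, and 0.331 RPKM in CCL21+RANK- libraries, 12.0, 12.4, and 14.8 RPKM in CCL21-RANK+ libraries, and 0.902 and 1.30 RPKM in CCL21-RANK- libraries. None of the 3 populations overlapped, with CCL21-RANK+ TECs the highest and CCL21+RANK- TECs the lowest. The level in CCL21-RANK+ TECs was 13.1 ± 1.53 RPKM (SD, n = 3), a smaller relative spread than the 6.82 ± 3.37 RPKM (SD, n = 3) of *Ccr7*. *Cxcr4* was 26.0-fold above CCL21+RANK- TECs (log2 fold change -4.70, SE 0.32, edgeR adjusted p = 2.77e-06) and 11.0-fold above CCL21-RANK- TECs (log2 fold change 3.46, SE 0.35, edgeR adjusted p = 3.68e-05). *Cxcr4* was also called 2.36-fold lower in CCL21+RANK- TECs, relative to CCL21-RANK- TECs (log2 fold change -1.24, SE 0.32, edgeR adjusted p = 0.0375). This last call was lost in the edgeR fit of only the libraries compared (adjusted p = 0.0996) and without any one of CCL21+RANK- replicates 2 and 3, CCL21-RANK+ replicates 2 and 3, and CCL21-RANK- replicates 1 and 2 (adjusted p between 0.0572 and 0.248).

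**Figure D2:**
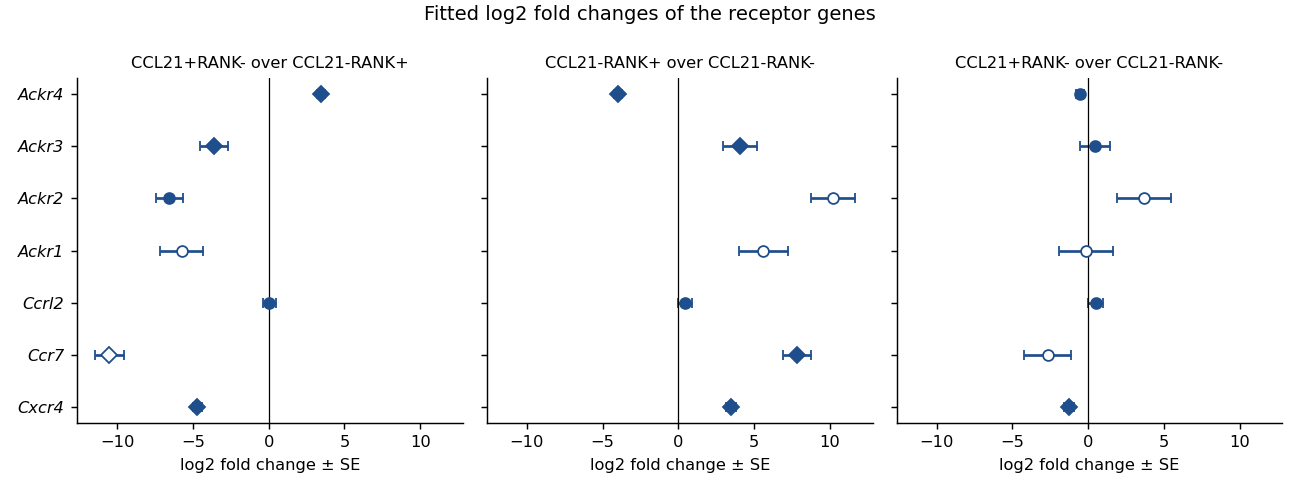
Fitted log2 fold changes with standard errors (edgeR) of the 7 receptor genes in the 3 comparisons, with diamonds for called genes, circles for genes not called, and open symbols where a population had at most 3 counts in all, so that the fitted value depends on the prior count. *Ackr4* points away from *Ackr3*, *Ccr7*, and *Cxcr4* in the comparisons with CCL21-RANK+ TECs, and every value between the RANK- populations except the call of *Cxcr4* is without a call.

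The leading genes, per length, differed between CCL21-RANK+ TECs and both RANK- populations. *Ackr4* was the first of the 7 in each RANK- library and supplied 88.6%, 93.5%, and 94.3% of their summed RPKM in CCL21+RANK- libraries and 94.1% and 93.6% in CCL21-RANK- libraries. In CCL21-RANK+ libraries its share was 4.94%, 14.0%, and 7.97%, whereas *Cxcr4* was the first gene with 38.9%, 55.0%, and 53.5% and *Ccr7* the next with 34.0%, 17.5%, and 21.6%. The ratio of *Ackr4* to *Cxcr4* RPKM was 34.7, 58.6, and 81.7 in CCL21+RANK- libraries, 32.01 and 30.6 in CCL21-RANK- libraries, and 0.127, 0.254, and 0.149 in CCL21-RANK+ libraries. The summed RPKM of the 7 genes differed less, from 21.8 to 28.7 in CCL21+RANK- libraries, from 22.4 to 31.0 in CCL21-RANK+ libraries, and at 30.7 and 42.4 in CCL21-RANK- libraries. The sums, shares, and ratios use all exons as the length, 5380 bases for *Ackr4*, whose longest transcript has 2698 bases. With that transcript as the length *Ackr4* would be higher in every library and raise the RANK- sums most, so the likeness of the sums depends on this choice. Within CCL21-RANK+ TECs and with all exons as the length, *Ackr4* (2.29 RPKM on average), *Ackr3* (2.09 RPKM), and *Ccrl2* (1.51 RPKM) overlapped between libraries, as did *Cxcr4* and *Ccrl2* in CCL21-RANK- TECs. The place of *Ackr4* among the genes below *Cxcr4* in CCL21-RANK+ libraries depends on its length as well.

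Replicate 1 of the CCL21-RANK+ TECs had the highest *Ccr7*, *Ackr1*, *Ackr2*, *Ackr3*, and *Ccrl2* of its population, whereas *Cxcr4* was highest in replicate 3 and *Ackr4* in replicate 2. Without replicate 1, the edgeR log2 fold changes for CCL21+RANK- against CCL21-RANK+ TECs were -10.10 for *Ccr7*, -4.80 for *Cxcr4*, -3.42 for *Ackr3*, -6.07 for *Ackr2*, and 3.22 for *Ackr4*, with adjusted p-values between 2.98e-06 and 0.0184. *Ackr1* did not pass the expression filter without this library.

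Of the 20 listed ligands of these receptors, 15 were tested. For CCL21+RANK- against CCL21-RANK+ TECs, 3 were called with higher levels on the CCL21+RANK- side (*Ccl21a*, *Ccl25*, *Cxcl12*) and 7 on the CCL21-RANK+ side (*Ccl2*, *Ccl5*, *Ccl11*, *Ccl17*, *Ccl19*, *Ccl22*, *Cxcl11*), with a median log2 fold change of -1.70, against a background of 15.4% of all tested genes in each direction. For CCL21-RANK+ against CCL21-RANK- TECs, 8 were called with higher levels on the CCL21-RANK+ side and 2 (*Ccl25*, *Cxcl12*) on the CCL21-RANK- side, with a median of 3.98 (3.82 with 3 genes at their bound), where the median of all tested genes was 0.06 and the backgrounds 14.4% and 15.1%. For the RANK- populations 3 were called (*Ccl19*, *Ccl21a*, *Cxcl11*), all with higher levels on the CCL21+RANK- side (background 4.35%). Among the tested ligands, *Ccl2*, *Ccl17*, and *Ccl22* were at or near 0 in the RANK- libraries. These genes could pass the filter only through the CCL21-RANK+ libraries, so the ligand medians are given as a description. The ligands that attract thymocytes did not move together. *Ccl19*, a ligand of CCR7 and ACKR4, was at 4.403, 2.73, and 3.13 RPKM in CCL21+RANK- libraries, 29.7, 8.45, and 14.3 RPKM in CCL21-RANK+ libraries, and 0.303 and 0.316 RPKM in CCL21-RANK- libraries. It was highest where *Ccr7* was and *Ackr4* was low, 4.60-fold above CCL21+RANK- TECs (log2 fold change -2.20, SE 0.40, edgeR adjusted p = 0.00121) and 49.8-fold above CCL21-RANK- TECs (edgeR adjusted p = 3.75e-05). *Ccl25*, the ligand of CCR9 and ACKR4, was instead higher in the populations with high *Ackr4*, at 167, 131, and 147 RPKM in CCL21+RANK- libraries and 93.8 and 98.2 RPKM in CCL21-RANK- libraries, against 35.4, 18.5, and 15.8 RPKM in CCL21-RANK+ libraries (log2 fold change of CCL21+RANK- over CCL21-RANK+ TECs 2.81, SE 0.26, edgeR adjusted p = 1.49e-05). *Ccl21a* did not follow *Ackr4*. It was at 561, 346, and 305 RPKM in CCL21+RANK- libraries, 152, 95.9, and 78.2 RPKM in CCL21-RANK+ libraries, and 6.89 and 8.88 RPKM in CCL21-RANK- libraries. The ratio of *Ccl21a* to *Ackr4* RPKM was 23.3, 16.96, and 11.3 in CCL21+RANK- libraries, 99.1, 30.5, and 35.4 in CCL21-RANK+ libraries, and 0.239 and 0.224 in CCL21-RANK- libraries. *Ccl21a* was one of the sorting reporters, near-identical gene copies share its reads, and in the knock-in the reporter sits in the gene itself.

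*Cxcl12* and its receptors lay in opposite populations. The ligand gene was at 87.0, 82.3, and 86.9 RPKM in CCL21+RANK- libraries and 94.99 and 106 RPKM in CCL21-RANK- libraries, against 3.42, 7.87, and 4.25 RPKM in CCL21-RANK+ libraries, where both *Cxcr4* and *Ackr3* were highest. The log2 fold change of *Cxcl12*, CCL21-RANK+ over CCL21-RANK-, was -4.37 (SE 0.33, edgeR adjusted p = 5.92e-06). Per library, the ratio of *Cxcl12* to *Cxcr4* RPKM was 125, 236, and 262 in CCL21+RANK- TECs, 105 and 81.4 in CCL21-RANK- TECs, and 0.284, 0.637, and 0.286 in CCL21-RANK+ TECs. *Mif*, a cytokine that also binds CXCR4 and had the highest mean of the listed ligands over all libraries, though below *Ccl21a* in each CCL21+RANK- library, was at 187 to 310 RPKM and called in none of the 3 comparisons.

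**Figure D3:**
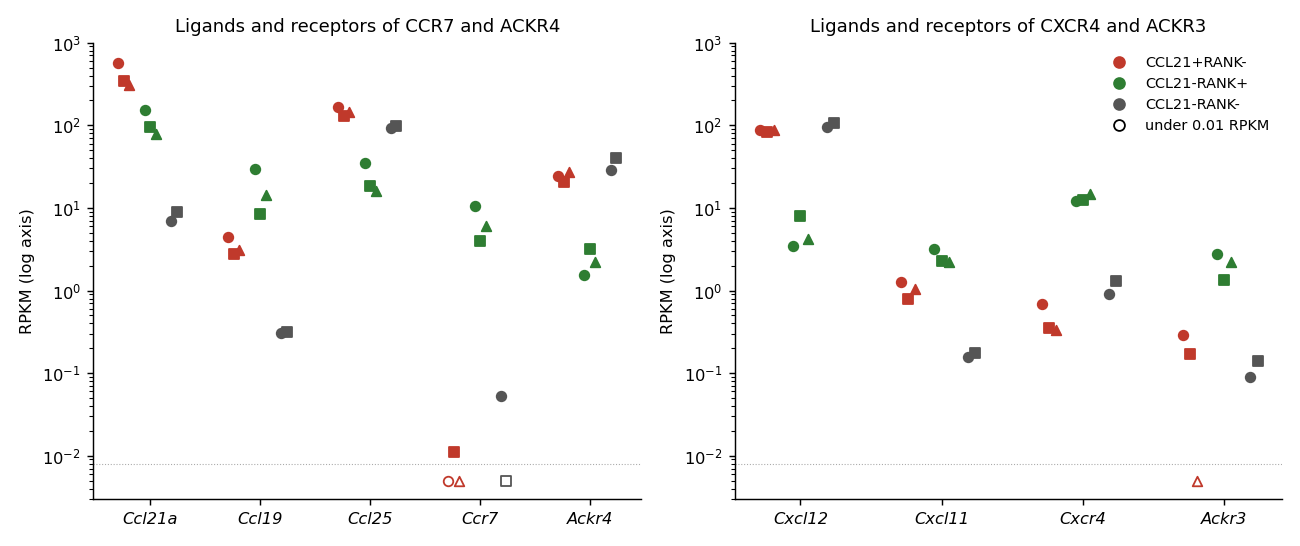
Levels (RPKM, log axis) of ligand and receptor genes in each of the 8 libraries, coloured by population with a marker shape for each replicate number, and open symbols under the dotted line for values under 0.01 RPKM. *Ccl19* is highest with *Ccr7* in CCL21-RANK+ libraries, whereas *Cxcl12* and *Ccl25* lie with *Ackr4* in the RANK- libraries.

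The other 18 chemokine receptor genes listed were at low levels outside CCL21-RANK+ TECs. Their summed RPKM was 0.852, 0.503, and 0.785 in CCL21+RANK- libraries, 47.9, 25.4, and 31.6 in CCL21-RANK+ libraries, and 0.574 and 0.369 in CCL21-RANK- libraries. Of 16 tested, *Ccr4*, *Ccr6*, and *Ccr10* were called in CCL21-RANK+ TECs, above both CCL21+RANK- and CCL21-RANK- TECs, where 15.4% and 14.4% of all tested genes were called in this direction. For the RANK- populations edgeR called 0 of the 16, of which 3 had an unadjusted p under 0.05, and DESeq2 called 0 of the 8 genes to which it gave an adjusted p. The edgeR background of this comparison was 8.02% of all tested genes in either direction. *Ccr4*, the receptor for CCL17 and CCL22, supplied most of the sum, at 33.7, 13.9, and 18.1 RPKM in CCL21-RANK+ libraries and at most 0.117 RPKM elsewhere (log2 fold change of CCL21+RANK- over CCL21-RANK+ TECs -8.47, SE 0.53, edgeR adjusted p = 1.71e-06). It was above *Ccr7* in each CCL21-RANK+ library. Its ligand gene *Ccl22* was at 17.7, 6.25, and 6.71 RPKM in the same libraries and at most 0.0540 RPKM elsewhere, and *Ccl17* was at 2.34, 0.233, and 0.956 RPKM with 0 counts in all RANK- libraries. *Ccr10*, the receptor for CCL27 and CCL28, was at 5.91, 6.16, and 6.84 RPKM and *Ccr6*, the receptor for CCL20, at 2.55, 2.87, and 3.51 RPKM in CCL21-RANK+ libraries, against at most 0.112 and 0.485 RPKM elsewhere (edgeR adjusted p = 1.48e-06 and 0.000460 against CCL21+RANK- TECs). *Ccr10* was the only called gene of the list whose libraries also parted between the RANK- populations, with 0, 0, and 0.0105 RPKM against 0.112 and 0.0566 RPKM (edgeR adjusted p = 0.01001), levels under the required 1 RPKM. *Cxcr5*, the CXCL13 receptor, was at 1.53, 0.616, and 0.470 RPKM in CCL21-RANK+ libraries and was not called because its mean was 0.874 RPKM (1.09 RPKM with totals that leave out *Gm26917* and *Gm42418*, a setting applied to the listed genes after seeing the data). *Ccr9*, the signalling receptor of CCL25, was at most at 0.385 RPKM in any library. The median log2 fold change of the 16 tested genes, CCL21+RANK- over CCL21-RANK+, was -5.03, or -4.84 with 7 genes at their bound. As many of them were at or near 0 in the RANK- libraries and could pass the filter only through the CCL21-RANK+ libraries, this median is a description.

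**Figure D4:**
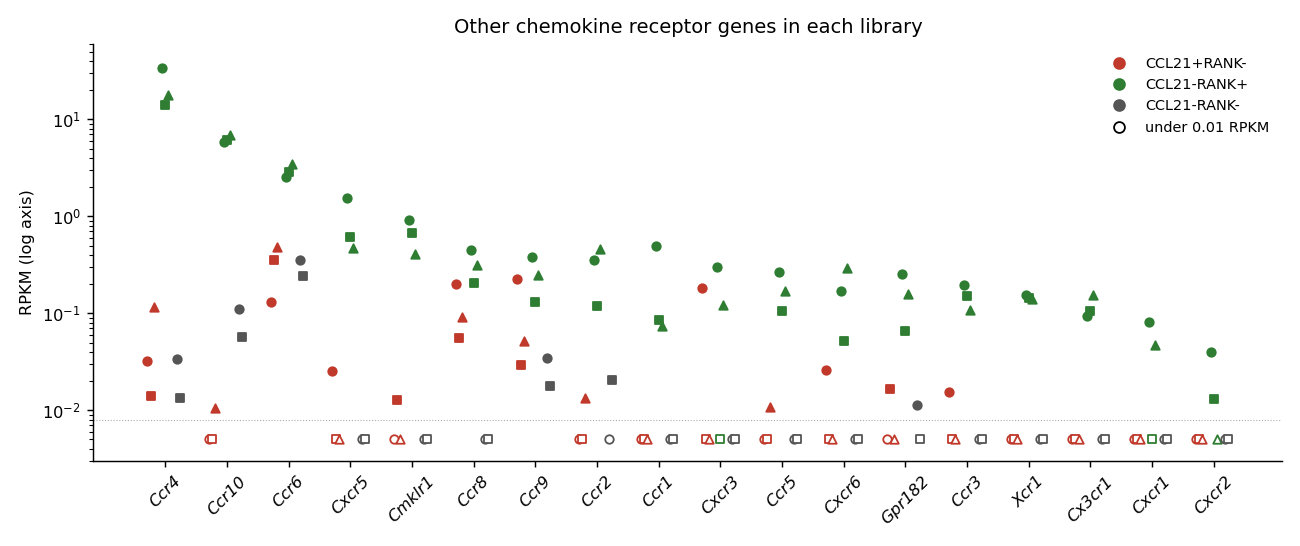
Levels (RPKM, log axis) of the other listed chemokine receptor genes in each library, ordered by mean level, coloured by population, with open symbols under the dotted line for values under 0.01 RPKM. *Ccr4*, *Ccr10*, and *Ccr6* lie at 2.55 RPKM or more in the CCL21-RANK+ libraries, and no gene of the list is above 0.485 RPKM in a RANK- library.

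The arrestins and receptor kinases, which act below the receptors, were called in both directions. Of 7 arrestins and receptor kinases tested for CCL21+RANK- against CCL21-RANK+ TECs, *Arrb1* and *Grk3* were called with higher levels on the CCL21+RANK- side and *Arrb2* and *Grk2* on the CCL21-RANK+ side, with a median log2 fold change of 0.17 and a background of 15.4% in each direction. The 2 beta-arrestins, adaptors that carry receptors to endocytosis, exchanged rank. *Arrb2* was at 3.40, 3.03, and 4.55 RPKM in CCL21+RANK- libraries, 16.7, 15.5, and 17.1 RPKM in CCL21-RANK+ libraries, and 2.40 and 3.14 RPKM in CCL21-RANK- libraries. *Arrb1* was at 9.07, 9.41, and 10.6 RPKM in CCL21+RANK- libraries, 5.47, 4.87, and 4.81 RPKM in CCL21-RANK+ libraries, and 7.01 and 7.81 RPKM in CCL21-RANK- libraries. The log2 fold changes of *Arrb2* and *Arrb1*, CCL21+RANK- over CCL21-RANK+, were -2.05 (SE 0.14, edgeR adjusted p = 2.60e-06) and 1.06 (SE 0.09, edgeR adjusted p = 8.29e-06). *Grk2*, a kinase that phosphorylates occupied receptors, was at 23.3, 16.5, and 15.8 RPKM in CCL21-RANK+ libraries and between 8.39 and 10.6 RPKM elsewhere, while *Grk5* (9.93 to 16.6 RPKM) and *Grk6* (6.82 to 11.0 RPKM) were not called between these populations. *Grk5* was the only gene of the list called between the RANK- populations, higher in CCL21+RANK- TECs (log2 fold change 0.59, edgeR adjusted p = 0.00698). The background of this direction was 4.35% of all tested genes.

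Among 9 G protein subunit genes, 3 were called lower (*Gnai1*, *Gnaq*, *Gna11*) and 1 higher (*Gng2*) in CCL21-RANK+ TECs, both relative to CCL21+RANK- and relative to CCL21-RANK- TECs, and 5 were called in neither comparison. The backgrounds were 15.4% lower and 15.4% higher in the first comparison, and 15.1% lower and 14.4% higher in the second. For the RANK- populations only *Gnai1* was called, higher on the CCL21-RANK- side (background 3.66%). *Gnai2*, the main inhibitory alpha subunit of leukocyte chemokine receptors, was at 58.5 to 81.7 RPKM with no call in any comparison, as were *Gnb1* (65.6 to 86.6 RPKM) and *Gnb2* (56.3 to 79.4 RPKM). *Gng2* was at 4.19, 2.04, and 2.46 RPKM in CCL21-RANK+ libraries and at most 0.344 RPKM elsewhere (log2 fold change of CCL21+RANK- over CCL21-RANK+ TECs -3.44, SE 0.40, edgeR adjusted p = 7.29e-05).

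Among 11813 genes with at least 5 CPM in one population, those most like *Ackr3*, *Ackr4*, *Ccr7*, and *Cxcr4* were found by the root mean square difference of centred log2 CPM over the 8 libraries. *Ackr1*, *Ackr2*, and *Ccrl2* averaged under 5 CPM in every population and were left out. For *Ackr4* they were *Kcnk2*, *Hoxb3os*, *Fkbp10*, *Syngr1*, and *Megf6*, with differences from 0.138 to 0.229. *Kcnk2*, a potassium channel gene, averaged 14.6 RPKM in CCL21+RANK-, 1.35 RPKM in CCL21-RANK+, and 16.8 RPKM in CCL21-RANK- TECs. The genes nearest to *Ccr7* were *Pgc*, *Gstm3*, *Slc6a20a*, *Hlx*, and *Igkc*, led by *Pgc*, which encodes the gastric protease progastricsin, at 0.162. *Cxcr4* was followed most closely by *Kit*, *Tbc1d4*, *Fscn1*, *Prex1*, and *Nuak2*, with *Kit*, the stem cell factor receptor gene, averaging 0.511, 16.2, and 1.24 RPKM in CCL21+RANK-, CCL21-RANK+, and CCL21-RANK- TECs. *Ackr3* had no gene as close, and its nearest were *Fgl2* at 0.656, *Tgm2*, *Adap1*, *Cnr1*, and *L1cam*. Of pairs among these 4 genes, *Ackr3* and *Cxcr4* differed least, at 1.18, and *Ackr4* and *Ccr7* most, at 5.67. In libraries at or near 0 counts, as for *Ccr7* in the RANK- populations and *Ackr3* in CCL21+RANK- replicate 3, log2 CPM depends on the prior count of 2. With 3 populations and 8 libraries, likeness mostly reflects the 3 population means.

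Markers of cell types outside the epithelium were examined because *Ccr7* and *Cxcr4* are abundant in leukocytes, *Ackr1* and *Ackr2* in endothelium, and *Ackr3* in endothelium and mesenchyme. The sort had removed CD45+ cells. *Ptprc*, which encodes CD45, was at 0.193, 0.112, and 0.0684 RPKM in CCL21+RANK- libraries, 0.576, 0.177, and 0.422 RPKM in CCL21-RANK+ libraries, and 0.0518 and 0.0351 RPKM in CCL21-RANK- libraries. Of 14 thymocyte markers, 3 were called higher in CCL21-RANK+ TECs relative to CCL21+RANK- TECs (*Cd4*, *Lck*, *Thy1*; background 15.4%, as for the counts of the following lists) and 6 relative to CCL21-RANK- TECs (*Cd4*, *Cd8a*, *Cd8b1*, *Lck*, *Rag1*, *Thy1*; background 14.4%), with summed RPKM of 14.5, 6.27, and 8.24 in CCL21+RANK- libraries, 34.6, 15.3, and 24.7 in CCL21-RANK+ libraries, and 4.67 and 4.01 in CCL21-RANK- libraries. *Thy1*, the thymocyte marker with the highest mean in CCL21-RANK+ TECs, was at 10.1, 4.77, and 5.02 RPKM there and at most 1.30 RPKM elsewhere. *Rag1*, with the highest mean over all libraries, was at 6.31, 2.57, and 5.99 RPKM in CCL21-RANK+ libraries and was called relative to CCL21-RANK- TECs but not relative to CCL21+RANK- TECs. *Cd3e* was at 0.757, 0.313, and 0.745 RPKM and *Cd3d* at 1.32, 0.461, and 1.06 RPKM in CCL21-RANK+ libraries.

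Of 10 dendritic cell and macrophage markers 7 were tested and 4 called higher in CCL21-RANK+ TECs relative to CCL21+RANK- TECs (*Lyz2*, *C1qa*, *Adgre1*, *Csf1r*). Their sum was 66.8, 19.6, and 23.2 RPKM in CCL21-RANK+ libraries and at most 0.392 RPKM elsewhere, and *Lyz2* supplied 52.3, 14.7, and 17.8 RPKM of it. *Fcgr1* was at 0 in all 8 libraries, and *Itgax*, the gene for CD11c, was at 0.182, 0.0590, and 0.00974 RPKM in CCL21-RANK+ libraries. Of 6 B cell markers 3 were called higher in CCL21-RANK+ TECs (*Cd79b*, *Ighm*, *Pax5*), with sums of 13.9, 6.82, and 8.38 RPKM against at most 1.22 RPKM elsewhere and *Cd79b* the most abundant in CCL21-RANK+ libraries. Of 10 endothelial markers 9 were tested and 3 called higher in CCL21-RANK+ TECs (*Plvap*, *Prox1*, *Tek*), with sums of 13.6, 6.95, and 7.12 RPKM against at most 0.860 RPKM elsewhere, with *Plvap* at 4.79, 2.33, and 1.85 RPKM and *Prox1* at 2.88, 1.59, and 2.61 RPKM the most abundant. *Cdh5*, the gene for VE-cadherin, was at 0.968, 0.603, and 0.490 RPKM and *Kdr* at 0.153, 0.121, and 0.0259 RPKM. Of 7 mesenchymal markers 5 were called higher in CCL21-RANK+ TECs, with sums of 52.7, 27.2, and 33.0 RPKM against at most 4.03 RPKM elsewhere, with *Col1a1* at 24.01, 7.43, and 15.4 RPKM and *Dcn* at 11.3, 8.79, and 6.43 RPKM the most abundant, while *Pdgfra* was at most at 0.122 RPKM there and between 0.154 and 0.262 RPKM in CCL21+RANK- libraries. Each of these sums was highest in CCL21-RANK+ replicate 1, like *Ccr7*, *Ackr1*, *Ackr2*, *Ackr3*, and *Ccrl2* and unlike *Cxcr4* and *Ackr4*. The part of these cell types in the receptor levels was not tested.

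Among the epithelial lists, all 6 cortical TEC markers were called higher in CCL21+RANK- TECs relative to CCL21-RANK+ TECs, as *Ackr4* was, with sums of 1490, 1426, and 1656 RPKM in CCL21+RANK-, 117, 167, and 104 RPKM in CCL21-RANK+, and 1487 and 1558 RPKM in CCL21-RANK- libraries. *Prss16* was the most abundant of them. Of 6 general thymic epithelial markers, led by *Krt8*, 4 were called lower and *Epcam* higher in CCL21-RANK+ TECs relative to CCL21+RANK- TECs. Of 7 medullary TEC markers 5 were called higher in CCL21-RANK+ TECs (*Aire*, *Cd80*, *Fezf2*, *H2-Aa*, *Tnfrsf11a*) in the same comparison, and *Krt5* was called lower. *Tnfrsf11a* is the gene of a sorting reporter, so its call is not independent of the sort. *Aire* was at 131, 94.1, and 114 RPKM in CCL21-RANK+ libraries and at most 0.810 RPKM elsewhere, and these libraries also held counts for 18718, 17615, and 17901 protein-coding genes, against 15124 to 16087 in RANK- libraries. Of the 4 tuft cell markers, 2 were called in each direction between CCL21+RANK- and CCL21-RANK+ TECs (background 15.4% each). Relative to CCL21-RANK- TECs, 3 were called higher in CCL21-RANK+ TECs (background 14.4%) and 2 in CCL21+RANK- TECs (background 4.35%), and 0 lower in either. All 4 parathyroid markers were called higher in CCL21+RANK- TECs, with sums of 7122, 1750, and 1955 RPKM there and at most 24.9 RPKM elsewhere and *Chga* the most abundant in CCL21+RANK- libraries. The highest sum was in CCL21+RANK- replicate 1, which also had the highest *Cxcr4*, *Ackr3*, and *Ccrl2* of its population, whereas *Ackr4* was highest there in replicate 3. The part of parathyroid cells in the receptor levels was not tested. The erythroid markers, led by *Hbb-bs* and *Hba-a1*, varied within populations, from 6.61 to 164 RPKM among CCL21+RANK- libraries, and 2 of 7 (*Klf1*, *Alas2*) were called higher in CCL21-RANK+ TECs relative to CCL21+RANK- TECs.

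**Figure D5:**
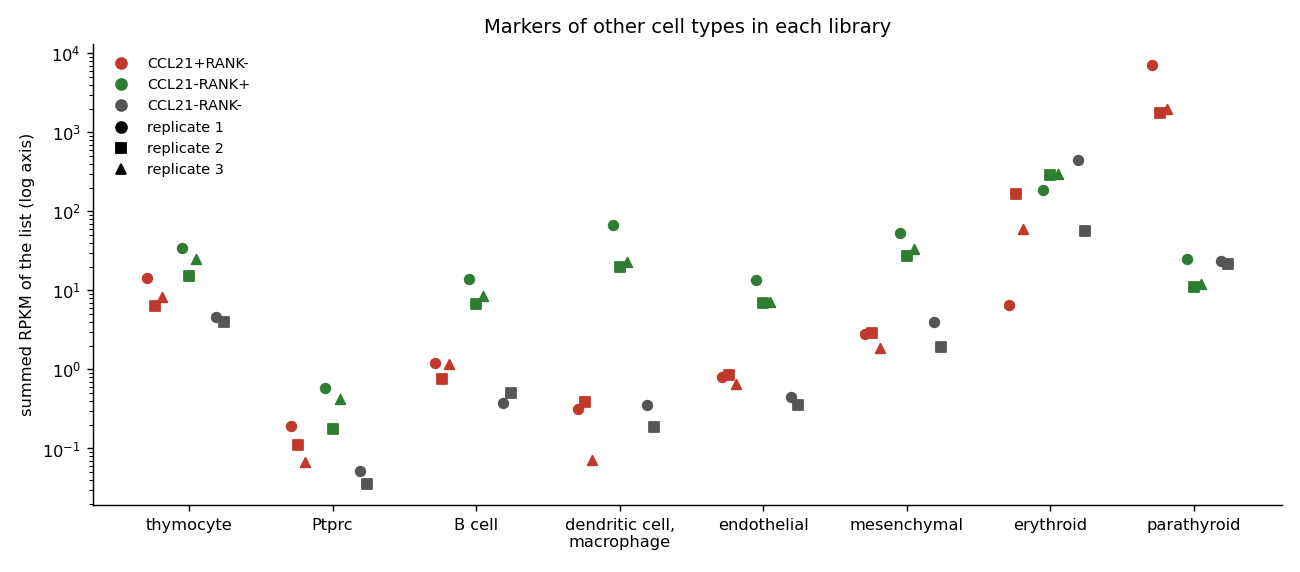
Summed RPKM (log axis) of the marker lists of other cell types in each of the 8 libraries, coloured by population with a marker shape for each replicate number. The thymocyte, B cell, dendritic cell and macrophage, endothelial, and mesenchymal sums are highest in the CCL21-RANK+ libraries, with replicate 1 on top, *Ptprc* overlaps between CCL21+RANK- and CCL21-RANK+ libraries, and the parathyroid sum is highest in the CCL21+RANK- libraries, at 1750 RPKM or more.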

How the data were processed

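RNA-sequencing of 8 libraries of sorted E17 TECs was analysed. For each gene the authors deposited expected counts from RSEM, which divides reads that match several genes, without normalization. The submitters' processing notes name bcl2fastq 2.20, Trimmomatic, STAR 2.5.1, RSEM 1.3.1, and the build mm10, whereas the study's methods name CLC Genomics Workbench. The library kit also differs between the labels (NEBNext Ultra II Directional) and those methods (TruSeq Stranded Total RNA), and the strand setting of the counting is not given in the sources used here.

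All 55450 identifiers matched GENCODE M21 (GRCm38), which gave positions and exon lengths. Expected counts were rounded and tested in edgeR 4.0.16 (R 4.3.3) with TMM normalization, the default filter (21451 genes), and one quasi-likelihood fit of 3 group means to 8 libraries, with Benjamini-Hochberg adjustment over all tested genes and the thresholds of the study. RPKM used the deposited library totals, of which the noncoding *Gm26917* took 6.89% to 19.4% and *Gm42418* 1.47% to 10.7%, which lowers all other levels. Counting intervals (exact, 95%) and the floor of 3 counts cover counting error only, since reads are not independent molecules. No 2 replicates agreed within sampling noise, and the common biological coefficient of variation was 0.326.

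All 7 receptor genes were named. For each list, genes were named by highest mean RPKM, with *Ccl19*, *Ccl21a*, *Ccl25*, and *Cxcl12*. Other listed genes, among them called genes, ligands of the receptors named, and defining markers of a cell type, were named after their values were seen. Genes most alike were the 5 with the smallest difference. The receptor genes and lists were chosen with earlier results of these data known. Alternatives were other scaling (DESeq2 1.42.0 size factors, upper quartile), DESeq2's Wald test, other filters and thresholds, a fit limited to the libraries compared, a block for the replicate number, other lengths and library totals, and leaving out each library.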

Additional observations from a re-analysis of the deposited data

How the results depend on the processing

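Of 314 recalculated log2 fold changes of the receptor genes, 292 kept their direction and lost no call, 10 lost a call, and 12 changed sign. The cause was not tested. No call was gained, but each setting applied the RPKM threshold to the group means of the main calculation. A gene held back only by that threshold, such as *Ackr2*, therefore could not gain a call in this tally. With *Gm26917* and *Gm42418* left out, *Ackr2* averaged 1.13 RPKM in CCL21-RANK+ TECs, over the threshold. Its edgeR adjusted p was then 0.000453 against CCL21+RANK- TECs and 0.000579 against CCL21-RANK- TECs. Every change of sign was in a comparison without a call. *Ccrl2*, CCL21+RANK- over CCL21-RANK+, turned to -0.0537 with DESeq2's size factors and with its Wald test, -0.0429 with upper-quartile scaling, -0.0137 without an expression filter, and -0.10 with at least 10 counts in every library, and ranged from -0.36 to 0.29 with one library left out. Between the RANK- populations, leaving out one library gave ranges from -2.09 to 1.88 for *Ackr1*, -0.41 to 1.05 for *Ackr3*, and -4.67 to 1.95 for *Ccr7*. The filter of 10 counts in every library removed *Ackr1*, *Ackr2*, *Ackr3*, and *Ccr7*. The called genes numbered 6618 between CCL21+RANK- and CCL21-RANK+ TECs, 6332 between CCL21-RANK+ and CCL21-RANK- TECs, and 1720 between the RANK- populations. With the adjusted p alone the first counts were 11516 and 10501, and a fold change over 2 lowered the last to 1030. Leaving out one library gave 6259 to 6556, 5352 to 6386, and 658 to 2066, and the last was 768 and 658 without CCL21-RANK- replicates 1 and 2, where the lone library is assumed to vary like the other groups. DESeq2's size factors moved the median log2 fold change of all tested genes, CCL21-RANK+ over CCL21-RANK-, from 0.06 to 0.20.

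The replicate numbers come from the labels, which do not say what they pair. Libraries of CCL21+RANK- and CCL21-RANK+ TECs with the same number had correlations of 0.126, 0.0485, and 0.0707 between their deviations from the group means, and each of the 6 libraries correlated best with its own number of the other population, a hint from the data only. The 4 same-numbered pairs with CCL21-RANK- libraries had negative correlations, from -0.117 to -0.0411. With the replicate number as a block 6617, 6324, and 1913 genes were called, of which 6525, 6096, and 1607 were shared with the fit without it. Among the receptor genes the block changed only the call of *Cxcr4* between the RANK- populations (log2 fold change -1.22, edgeR adjusted p = 0.0669). With the block, the edgeR adjusted p of *Ackr1*, CCL21-RANK+ over CCL21-RANK-, rose from 0.0171 to 0.0858, but this gene was called in neither fit.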
